A study of Mus musculus with 32 samples.

Results

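The actin genes and 2 proteins that bind actin filaments in smooth muscle, transgelin and calponin, were followed through differentiation of C2C12 cells, a mouse skeletal myoblast line. All probe sets annotated to Acta1, Actc1, Acta2, Actg2, Actg1, Actb, Tagln and Cnn1 were taken, leaving out the array's own control features, which gave 10 probe sets for 8 genes, of 12422 probe sets and 8251 named genes in all. One set of 20 arrays held control and TSA groups, TSA being trichostatin A, which inhibits histone deacetylases. Each had 2 arrays in growth medium, written here as 0 h, and 2 at each of 4, 12, 24 and 48 h of differentiation. A second set of 12 arrays held cells labelled pHan and cells labelled pHanSir2, each with 3 arrays at 12 h and 3 at 36 h of differentiation. The labels give neither the dose of TSA nor whether it was removed, do not describe the pHan construct, and do not say whether the pHanSir2 cells were 1 clone or whether arrays of a group came from separate cultures. All p-values therefore measure the spread between arrays, which may be technical.

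Vertebrates have several actins that are nearly identical in sequence and differ in where they are made. Acta1 encodes the actin of adult skeletal muscle, Actc1 that of the heart, Acta2 and Actg2 the actins of vascular and enteric smooth muscle, and Actb and Actg1 the cytoplasmic actins found in every cell. Cultured myoblasts exchange cytoplasmic actins for sarcomeric ones as they form myotubes, and Actc1 is made early in this process. Many of these genes are targets of serum response factor (SRF), which binds the CArG box of their promoters and is controlled in part by the pool of free actin. Tagln (transgelin, also called SM22) and Cnn1 (calponin) are standard markers of smooth muscle that are also targets of SRF, and Tagln is made in many cultured mesenchymal cells.

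Promoter windows of 250 bases before to 50 bases after the annotated start were found in the RefSeq table (build GRCm38.p6) for 5 of the 8 genes, Acta1, Actc1, Acta2, Actg1 and Cnn1. They were searched on both strands for exact matches to a CArG box, CCWWWWWWGG with W for A or T, and to an E-box. The E-box, CANNTG, is the site of basic helix-loop-helix factors such as MyoD. A CArG box was found in the windows of Acta1, Actc1 and Actg1, starting 73, 47 and 90 bases before the annotated start, and 535 of all 32851 windows (1.63%) held one. No exact match lay in the windows of Acta2 and Cnn1, which does not show that they lack a site for SRF. The Acta2 window holds ccctatatgg and ccttgtttgg, each 1 base off the pattern and left in lower case below. Such near matches were not searched for in any window. All 5 held at least 1 E-box, and so did 72.3% of all windows. The 4 actin windows are shown because differentiation raised Acta1 and Actc1 and did not raise Actg1 and Acta2. They lie at chr8:123894726-123895025 (Acta1), chr2:114052826-114053125 (Actc1), chr11:120348446-120348745 (Actg1) and chr19:34255324-34255623 (Acta2), all on the minus strand, and are printed 5′ to 3′ along the gene with CArG boxes (10 bases) and E-boxes (6 bases) in capitals.
Acta1 promoter: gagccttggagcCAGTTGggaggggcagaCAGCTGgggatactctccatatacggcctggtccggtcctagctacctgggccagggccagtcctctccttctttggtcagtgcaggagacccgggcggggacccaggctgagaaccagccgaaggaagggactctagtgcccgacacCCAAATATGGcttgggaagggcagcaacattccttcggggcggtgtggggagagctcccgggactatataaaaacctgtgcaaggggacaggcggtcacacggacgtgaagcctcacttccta
Actc1 promoter: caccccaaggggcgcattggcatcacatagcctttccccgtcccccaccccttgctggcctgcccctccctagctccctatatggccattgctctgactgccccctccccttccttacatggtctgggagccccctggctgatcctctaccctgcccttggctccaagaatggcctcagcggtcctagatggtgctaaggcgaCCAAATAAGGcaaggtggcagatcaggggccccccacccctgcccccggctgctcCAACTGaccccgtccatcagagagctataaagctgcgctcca
Actg1 promoter: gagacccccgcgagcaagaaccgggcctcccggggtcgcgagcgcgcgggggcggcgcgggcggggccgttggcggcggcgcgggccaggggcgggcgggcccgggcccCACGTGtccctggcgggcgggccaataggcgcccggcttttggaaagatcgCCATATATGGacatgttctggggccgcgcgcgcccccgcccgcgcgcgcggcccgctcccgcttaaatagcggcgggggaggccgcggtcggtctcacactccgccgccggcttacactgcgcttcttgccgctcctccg
Acta2 promoter: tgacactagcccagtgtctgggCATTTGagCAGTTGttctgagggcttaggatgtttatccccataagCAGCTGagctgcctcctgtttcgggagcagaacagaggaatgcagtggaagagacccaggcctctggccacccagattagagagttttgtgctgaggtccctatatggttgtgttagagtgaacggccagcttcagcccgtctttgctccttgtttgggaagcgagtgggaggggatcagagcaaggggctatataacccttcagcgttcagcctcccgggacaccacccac
The CArG boxes read CCAAATATGG in Acta1, CCAAATAAGG in Actc1 and CCATATATGG in Actg1, so no 2 of these genes share the same 10 bases.

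**Figure D1:**
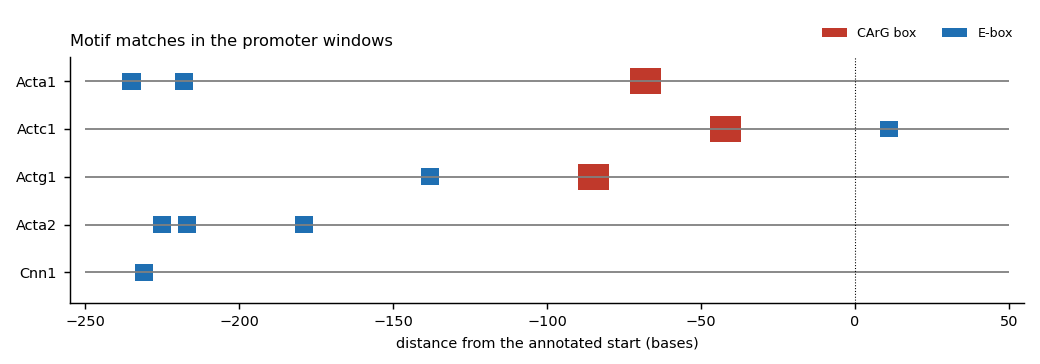
Position of CArG boxes (red) and E-boxes (blue) in the windows of 5 member genes. The x axis is the distance from the annotated start in bases and each line is 1 window of 300 bases. Only exact matches are drawn. A CArG box so defined lay in 3 of the 5 windows and an E-box in all 5.

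Levels are the deposited intensities on a linear scale, and a level of one probe set is not compared with that of another. Changes are differences of log2(intensity + a pseudocount), 137.7 in the TSA arrays and 8.82 in the Sir2 arrays, with values below 0 set to 0. They are given ± their standard error (SE) from limma, with Benjamini-Hochberg adjusted p-values over all 7453 probe sets tested in each set of arrays. For each probe set the spread was pooled over all groups of its set of arrays. Its SE is therefore the same in every comparison of 2 groups and is not that of the arrays compared alone. A change was called where the adjusted p was below 0.05. Whether the arrays of different groups overlap is given as a description only. How many of all probe sets separate in that way was not counted. The pseudocount compresses changes of dim probe sets. All 10 member probe sets were tested in the TSA arrays and 9 in the Sir2 arrays, where Cnn1 was too dim. The probe sets were 100381_at (Acta1), 101029_f_at and 101028_i_at (Actc1), 93100_at (Acta2), 93102_f_at (Actg2), 96573_at (Actg1), 95705_s_at and 101578_f_at (Actb), 93541_at (Tagln) and 99942_s_at (Cnn1), and where a gene had more than 1 they are told apart here by their endings. Affymetrix names ending in _f_at and _s_at mark probe sets whose probes can match related transcripts, and _i_at marks one with fewer probes than the design asked for. For actins the former means that signal from one isoform can be read by the probe set of another. Array medians lay between 253.2 and 286.4 in the TSA arrays and between 50.4 and 57.5 in the Sir2 arrays. Rank correlations between arrays of a group were 0.911 to 0.966 and 0.970 to 0.978. The highest intensity was 40347 on the first control array at 0 h and 27909 on the second, and several results against control cells at 0 h rest on the first. In bulk RNA, fewer cells of a type and less RNA per cell cannot be told apart. The Sirt1 probe set was higher in pHanSir2 than in pHan cells at 12 h (42.1 ± 5.90 against 14.7 ± 5.40, SD, n = 3, adjusted p = 0.0316) and did not pass at 36 h (61.8 ± 23.2 against 32.0 ± 10.8, adjusted p = 0.106).

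Differentiation of control cells raised the sarcomeric actins and lowered Tagln, and no change of Acta2, Actg2 or Cnn1 was called. Acta1 read 9.38 and 113.4 at 0 h, 64.5 and 152.2 at 4 h, 286.3 and 462.8 at 12 h, 6566 and 5824 at 24 h, and 19919 and 20049 at 48 h. The arrays of 12, 24 and 48 h each lay above all earlier ones, and those of 0 and 4 h overlapped. Against 0 h the log2 change was 1.39 ± 0.27 at 12 h (adjusted p = 0.0121), 5.04 ± 0.27 at 24 h (9.8e-08) and 6.71 ± 0.27 at 48 h (2.0e-09). The call at 12 h was lost without control replicate 1 at 0 h (1.01, adjusted p = 0.112) and without control replicate 2 at 12 h (1.14, adjusted p = 0.114). At 48 h Acta1 stood at ranks 76 and 92 of the 12422 probe sets.

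Actc1 was read by 2 probe sets. The _f_at probe set read 2590 and 3290 at 0 h, 4836 and 4175 at 4 h, 3640 and 4282 at 12 h, 16600 and 16280 at 24 h, and 24101 and 25059 at 48 h. Its changes were 2.44 ± 0.14 at 24 h (adjusted p = 2.8e-07, 5.59-fold) and 3.01 ± 0.14 at 48 h (1.1e-08, 8.36-fold), and the change at 4 h, 0.60 ± 0.14, did not pass (0.0570). Its probes belong to the class that can match several members of a gene family, and what share of its signal at 0 h came from other actins was not tested. The other, the _i_at probe set, had no measurable level at the first 2 times, with -49.7 and -48.2 at 0 h and -66.8 and -47.6 at 4 h. It then read 241.9 and 738.3 at 12 h, 9143 and 7078 at 24 h, and 16250 and 14852 at 48 h. Its changes against 0 h were 2.07 ± 0.29 at 12 h (adjusted p = 0.00201), 5.89 ± 0.29 at 24 h (5.0e-08) and 6.83 ± 0.29 at 48 h (3.1e-09). The control arrays at 0 and 4 h were all set to the floor, so these values depend on the pseudocount and no fold is given. These floored groups add no spread to the pooled SE of this probe set. How far that lowers its SE and adjusted p-values, here and in the TSA comparisons, was not tested. From 12 h on the arrays of _i_at lay above all earlier ones, while those of _f_at overlapped between 4 and 12 h.

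The cytoplasmic actin Actg1 was among the brightest features of the array. It was the brightest of 12422 probe sets on 10 of the 20 TSA arrays and among the 10 brightest on 17. In control cells it read 40347 and 27258 at 0 h, 33004 and 24524 at 4 h, 37078 and 44056 at 12 h, 31458 and 32263 at 24 h, and 23126 and 20346 at 48 h. The arrays of 48 h lay below those of every other time in control cells. The change at 48 h against 0 h was -0.61 ± 0.20 (adjusted p = 0.0286). Without control replicate 1 at 0 h it was -0.33 (adjusted p = 0.285), and without control replicate 2 at 48 h it was -0.52 (adjusted p = 0.132).

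The smooth muscle genes did not share a course. Tagln read 3892 and 3804 at 0 h, 6460 and 5963 at 4 h, 4427 and 5102 at 12 h, 1471 and 1435 at 24 h, and 511.2 and 844.2 at 48 h. The arrays of 24 and 48 h lay below all earlier ones, with changes of -1.33 ± 0.20 (adjusted p = 9.8e-04) and -2.32 ± 0.20 (2.2e-06), a 5.68-fold lower mean at 48 h. The higher mean at 4 h, 0.67 ± 0.20, did not pass (adjusted p = 0.128). Acta2 lay between 7649 and 15380 on the 10 control arrays, and its test of any difference between the 5 times did not pass (adjusted p = 0.316). Actg2 lay between 5858 and 14644 (adjusted p = 0.182), and Cnn1 between 199.2 and 1556 (adjusted p = 0.940). For Cnn1 the 2 arrays of 24 h alone spanned 199.2 to 1556, and the SE of its changes was 0.81.

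Of the 10 member probe sets, those called against 0 h in control cells numbered 2 at 4 h (2.05% of all tested probe sets were called), 4 at 12 h (5.23%), 4 at 24 h (12.9%) and 5 at 48 h (35.3%). At 48 h 3 of the 5 were higher (Acta1 and both of Actc1) and 2 lower (Actg1 and Tagln). The 2 calls at 4 h, and 2 of the 4 at 12 h, were the Actb probe sets described further on. Fits of only the 4 arrays compared did not call these 4 Actb changes (adjusted p 0.108 to 0.162), nor Acta1 (0.174) and Actc1 by _i_at (0.162) at 12 h and Actg1 at 48 h (0.155).

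The other genes of these systems moved as follows in control cells at 48 h against 0 h. Over all tested probe sets 35.3% were called there, 1193 higher and 1437 lower. Of 13 tested skeletal muscle genes 12 were higher and 1 lower (median log2 change 4.03, against 0.0069 over all tested probe sets). Those of smallest adjusted p were the embryonic myosin Myh3 (5.85 ± 0.14), the myosin light chain Mylpf (4.03 ± 0.14), and the slow troponin genes Tnnt1 (4.92 ± 0.18) and Tnnc1 (6.97 ± 0.26). The largest rise was that of the light chain Myl1 (7.42 ± 0.29). Of 8 other smooth muscle genes tested, 0 were higher and 5 lower (median -0.96). They were Myl9, a myosin light chain (-2.44 ± 0.16), Cnn2 (-2.11 ± 0.16), Csrp1 (-1.04 ± 0.10), Csrp2 (-1.41 ± 0.22) and Tagln2 (-0.89 ± 0.15). This list takes in other calponin and transgelin genes (Cnn2, Cnn3 and Tagln2). How far its genes are particular to smooth muscle was not tested, here or in the counts below. Of 14 genes of the SRF axis 1 was higher and 6 lower (median -0.25), with the small GTPase Rhoa at -1.14 ± 0.18, Ccn2 (connective tissue growth factor) at -1.24 ± 0.21, Fhl2 at -0.66 ± 0.13 and Fhl1 at -0.46 ± 0.09, and Fos as the higher one (0.87 ± 0.24). Of 25 genes of actin binding and turnover 1 was higher and 12 lower (median -0.40), with the disassembly cofactor Wdr1 at -1.51 ± 0.13, the coronin Coro1c at -2.05 ± 0.19, gelsolin, Gsn, at -0.91 ± 0.12 and the capping protein Capg at -1.01 ± 0.13. The higher one was Cfl2, the muscle cofilin (0.34 ± 0.12). Of 12 crosslinkers and tropomyosins 3 were higher and 6 lower (median -0.62). The higher ones were the muscle genes Tpm2 (2.60 ± 0.35) and Actn3 (2.66 ± 0.46) together with Tpm3 (0.56 ± 0.17), and the lower ones included the cytokinesis protein anillin, Anln (-3.88 ± 0.14), Lasp1 (-2.46 ± 0.13), Tpm4 (-1.88 ± 0.14) and plastin 3, Pls3 (-1.29 ± 0.14).

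The label of smooth muscle markers was set against the levels of the 12 other smooth muscle genes on the array. Of these 8 were bright enough to test in the TSA arrays and 9 in the Sir2 arrays. Myh11, the smooth muscle myosin heavy chain, read between -26.3 and 197.1 on the 20 TSA arrays and between 1.09 and 10.9 on the 12 Sir2 arrays. It was too dim to test in both, as were Itga8 and Aoc3. The smoothelin probe set (Smtn) was at or below 0 on 18 of the 20 TSA arrays. It read 150.2 to 225.4 in the Sir2 arrays, where it was tested. Others were tested in both, among them Mylk (395.3 to 1267 on the TSA arrays), Myl9 (356.5 to 8493) and Cnn3 (13637 to 20670). Of the adipocyte, bone and cartilage, endothelial and leukocyte genes, 2, 3, 1 and 2 were bright enough to test in the TSA arrays. Of these 1 was called at 48 h in control cells, the leukocyte gene Csf1r (0.88 ± 0.22, adjusted p = 0.00814), and 0 in the mean TSA effect. Over all tested probe sets 35.3% and 22.0% were called in these comparisons.

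**Figure D2:**
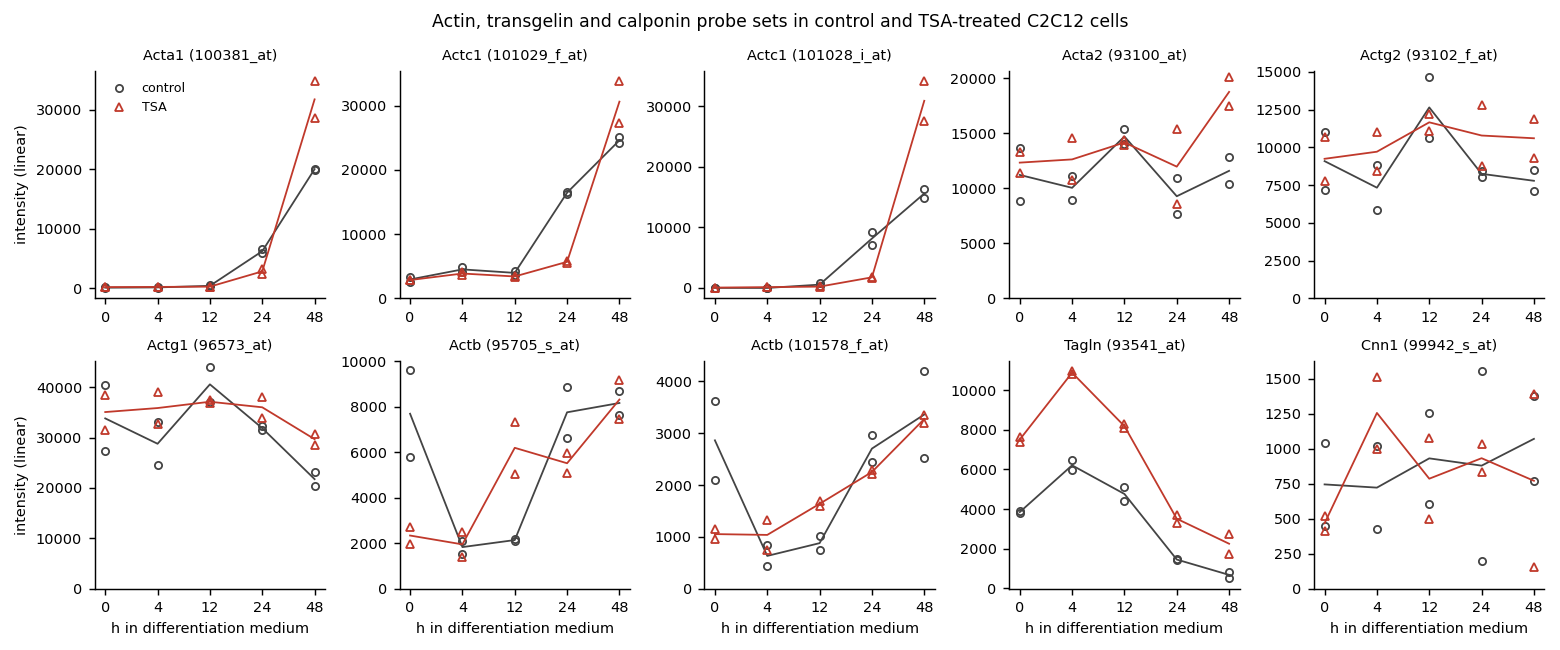
Intensity (linear scale, y axis from 0 or the lowest value) of the 10 probe sets at 0, 4, 12, 24 and 48 h (evenly spaced, not to scale), with 1 point per array, circles for control, triangles for TSA, and lines through the means of 2 arrays. Acta1 and both Actc1 probe sets lie lower at 24 h and higher at 48 h with TSA, with TSA arrays of Acta1 at 34800 and 28617 at 48 h, and Tagln lies higher with TSA at each time.

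With TSA the sarcomeric actins were lower than in control cells at 24 h, and at 48 h 1 Actc1 probe set was higher. In TSA-treated cells Acta1 read 116.6 and 204.3 at 0 h, 176.2 and 204.0 at 4 h, 256.7 and 220.3 at 12 h, 2398 and 3206 at 24 h, and 34800 and 28617 at 48 h. The TSA and control arrays did not overlap at any time, with TSA higher at 0, 4 and 48 h and lower at 12 and 24 h. Of these differences only that at 24 h was called, -1.12 ± 0.27 (adjusted p = 0.0268, means 2802 and 6195, 2.21-fold lower). It was lost without any one of the 4 arrays compared (adjusted p 0.0521 to 0.168), with the smaller pseudocount (0.10), without a filter (0.0505) and in a fit of only those 4 arrays (0.182). At 48 h the difference was 0.66 ± 0.27 (adjusted p = 0.109). This SE is pooled over all groups. On the linear scale the SD of Acta1 was 120% of the mean in control cells at 0 h. At 48 h it was 0.46% in control and 13.8% in TSA-treated cells. The test of whether the TSA effect differed between times passed for Acta1 (adjusted p = 0.0125).

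Actc1 was also lower with TSA at 24 h. The probe set _f_at read 2911 and 2785 at 0 h, 3630 and 4091 at 4 h, 3516 and 3293 at 12 h, 5564 and 5800 at 24 h, and 33861 and 27338 at 48 h with TSA. At 24 h it was 2.89-fold lower than in control cells, -1.51 ± 0.14 (adjusted p = 5.7e-05), and at 48 h the difference of 0.31 ± 0.14 did not pass (0.163), although both TSA arrays lay above both control arrays. Its mean effect over the 5 times was -0.33 ± 0.06 (adjusted p = 0.00249). The probe set _i_at read -9.15 and 8.95 at 0 h, 52.4 and 102.7 at 4 h, 188.0 and 134.5 at 12 h, 1756 and 1637 at 24 h, and 34159 and 27604 at 48 h with TSA. At 24 h it was 4.78-fold lower, -2.16 ± 0.29 (adjusted p = 6.3e-04), and at 48 h 1.99-fold higher, 0.98 ± 0.29 (0.0321). The call at 48 h was lost without any one of the 4 arrays compared (adjusted p 0.0617 to 0.150), with the smaller pseudocount (0.0617), without a filter (0.0563) and in a fit of only those 4 arrays (0.117). The calls at 24 h of both probe sets were lost in such a fit (0.0808 each). At 12 h the difference of -0.95 ± 0.29 did not pass (adjusted p = 0.101). For both Actc1 probe sets the TSA effect differed between times (adjusted p = 4.2e-04 and 7.4e-04). Myog, the muscle transcription factor myogenin, was 2.0 ± 0.44 higher with TSA at 0 h (adjusted p = 0.00616) and 1.75 lower at 12 h (-1.75 ± 0.44, adjusted p = 0.0412), and its differences at 24 and 48 h, -0.54 and -0.02, did not pass.

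Tagln was higher with TSA at every time, and the difference was called at 4 of the 5. With TSA it read 7378 and 7642 at 0 h, 10812 and 10965 at 4 h, 8078 and 8299 at 12 h, 3722 and 3305 at 24 h, and 2763 and 1740 at 48 h. Each TSA array lay above both control arrays of its time. The difference was 0.94 ± 0.20 at 0 h (adjusted p = 0.00563), 0.80 ± 0.20 at 4 h (0.0232), 0.77 ± 0.20 at 12 h (0.0549, not called), 1.20 ± 0.20 at 24 h (0.00346) and 1.55 ± 0.20 at 48 h (2.0e-04), which is 1.95-fold at 0 h and 3.32-fold at 48 h. The call at 4 h was lost without any one of the 4 arrays compared (adjusted p 0.0846 to 0.127). In a fit of only the 4 arrays compared the call at 0 h held, and those at 4 h (0.0769), 24 h (0.128) and 48 h (0.135) were lost. The mean effect over the 5 times was 1.05 ± 0.09 (adjusted p = 4.8e-06), and the test of a difference between times did not pass (adjusted p = 0.201). Within TSA-treated cells Tagln still fell, by -1.07 ± 0.20 at 24 h (adjusted p = 0.00297) and -1.71 ± 0.20 at 48 h (4.1e-05) against 0 h.

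The group means of Tagln had an order that not every step of the fit bore out. From the lowest mean to the highest they ran control 48 h, control 24 h, TSA 48 h, TSA 24 h, control 0 h, control 12 h, control 4 h, TSA 0 h, TSA 12 h and TSA 4 h, and with 2 arrays per group 0 of the 9 pairs of neighbours overlapped. Control 0 h and 12 h (0.30 ± 0.20, adjusted p = 0.462) and TSA 0 h and 12 h (0.12 ± 0.20, 0.766) are neighbours in it whose differences did not pass, and the other neighbouring pairs were not tested. The groups were sorted by their means first, and the share of all probe sets with so few overlaps was not counted. For Acta1 3 of 9 neighbouring pairs overlapped, for Acta2 8 and for Actg2 and Cnn1 all 9, so no order can be read for the last 3.

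No TSA difference was called at any single time for Acta2, Actg2, Actg1 or Cnn1. Acta2 came closest at 48 h, where it read 17434 and 20057 with TSA against 10364 and 12791, 0.69 ± 0.28 (adjusted p = 0.110). Actg1 read 30781 and 28568 with TSA at 48 h against 23126 and 20346, 0.45 ± 0.20 (adjusted p = 0.133), so the groups did not overlap but the difference did not pass. Actg2 differed by between -0.10 and 0.43 and Cnn1 by between -0.81 and 0.76, the latter with an SE of 0.81.

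Member probe sets called for TSA against control numbered 3 of 10 at 0 h (17.9% of all tested), 1 at 4 h (11.4%), 1 at 12 h (4.08%), 4 at 24 h (5.94%) and 2 at 48 h (19.6%), so that at 4 h and 48 h the members' share was near that of all probe sets. For the mean effect 2 were called (22.0% of all), again a share near the background, and the TSA effect differed between times for 5 (22.2% of all). Within TSA-treated cells 0 were called by limma at 4 h against 0 h (6.0%), where 2 had an unadjusted p below 0.05 and the lowest adjusted p was 0.128. There were 2 at 12 h (16.7%), 5 at 24 h (16.6%) and 6 at 48 h (26.4%). At 12 h 1 of the 2 was Actc1 (_i_at), at 1.07 ± 0.29 (adjusted p = 0.0231). This call was lost with the larger pseudocount (0.64, adjusted p = 0.0817) and without any one of the 4 arrays compared (adjusted p 0.0638 to 0.143). With the smaller pseudocount it was 1.64 (0.00557).

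**Figure D3:**
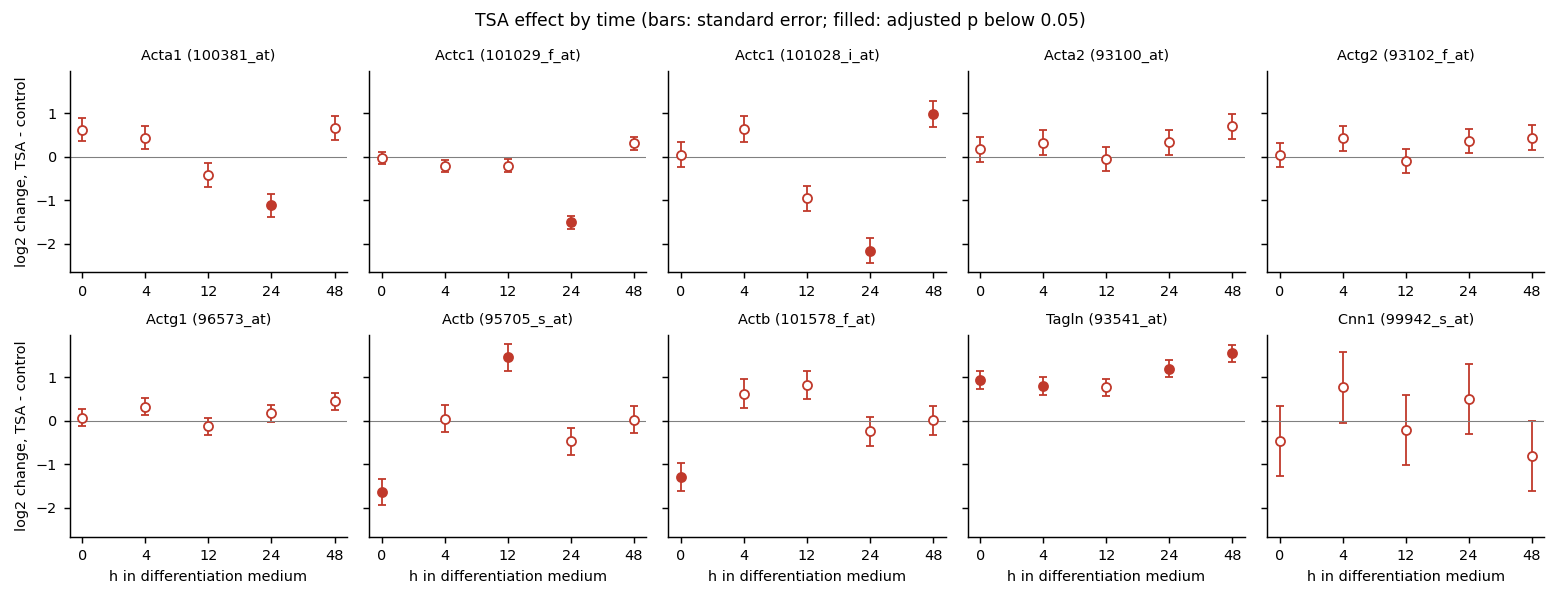
Log2 change of TSA against control (y axis, ± SE) at each time (x axis, h, evenly spaced) for the 10 probe sets, with filled points for changes with an adjusted p below 0.05. Acta1 and Actc1 are lowest at 24 h, at -1.12, -1.51 (_f_at) and -2.16 (_i_at), while Tagln stays between 0.77 and 1.55.

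Other smooth muscle and SRF genes were also higher with TSA on average over the 5 times. Over all tested probe sets 22.0% were called for this mean effect, 757 higher and 885 lower. Of 8 other smooth muscle genes 6 were higher and 1 lower (median 0.39, against -0.03 over all tested probe sets), with Myl9 at 1.03 ± 0.07, Csrp1 at 0.49 ± 0.05 and Csrp2 at 0.53 ± 0.10 among the higher and Tagln2 at -0.49 ± 0.07 as the lower one. Of 14 genes of the SRF axis 8 were higher and 0 lower (median 0.36), led by Ccn2 (1.94 ± 0.09), with Fhl1 at 0.80 ± 0.04, vinculin, Vcl, at 0.43 ± 0.06 and Junb at 0.68 ± 0.10. Of 25 genes of actin binding and turnover 7 were higher and 2 lower (median 0.06), with profilin 2, Pfn2, at 2.57 ± 0.09, Gsn at 0.51 ± 0.05, the pointed-end capper Tmod3 at 0.40 ± 0.04 and radixin, Rdx, lower at -0.32 ± 0.06. Of 12 crosslinkers and tropomyosins 3 were higher and 1 lower (median 0.15), with Actn3 at 1.55 ± 0.20, Actn1 and Lasp1 at 0.17 each and Anln lower at -0.29 ± 0.06. Of 13 skeletal muscle genes 6 were higher and 2 lower (median 0.05), with Mylpf at 0.40 ± 0.06, desmin, Des, at 0.47 ± 0.08 and Myod1 at 0.28 ± 0.05 among the higher and Tnnt1 at -0.80 ± 0.08 among the lower.

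The Actb probe sets gave a course that the array's own Actb control features did not share. In control cells the probe set _s_at read 9613 and 5778 at 0 h, 2114 and 1536 at 4 h, 2086 and 2183 at 12 h, 8878 and 6639 at 24 h, and 7622 and 8714 at 48 h. The arrays of 4 and 12 h lay below those of all other times, with changes against 0 h of -1.97 ± 0.31 (adjusted p = 0.00743) and -1.74 ± 0.31 (0.00802). The probe set _f_at changed by -1.97 ± 0.33 at 4 h (adjusted p = 0.0103) and -1.53 ± 0.33 at 12 h (0.0200). With TSA the probe set _s_at read 2705 and 1963 at 0 h, 1380 and 2509 at 4 h, 7333 and 5058 at 12 h, 5065 and 5966 at 24 h, and 7450 and 9191 at 48 h. It was therefore lower than control at 0 h, -1.64 ± 0.31 (adjusted p = 0.00233), and higher at 12 h, 1.46 ± 0.31 (0.0171), and _f_at was lower at 0 h, -1.29 ± 0.33 (0.0154). The TSA effect differed between times for both (adjusted p = 0.00293 and 0.0275).

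The array also carries Actb control probe sets, which were no members. The one for the 3′ end read 31899 and 17580 in control cells and 21142 and 26850 in TSA-treated cells at 0 h, 18676 and 13873 against 30294 and 19019 at 4 h, and 25577 and 36531 against 28906 and 31516 at 12 h. Fitted in the same way, it differed with TSA by 0.0084 ± 0.34 at 0 h (adjusted p = 0.993) and -0.02 ± 0.34 at 12 h (0.994), and in control cells by -0.55 ± 0.34 at 4 h (0.467) and 0.37 ± 0.34 at 12 h (0.603). The difference of the TSA effect between times did not pass either (adjusted p = 0.804). The control probe sets of the middle and the 5′ end gave TSA differences of 0.09 and 0.05 at 0 h. The ratio of the 3′ to the 5′ control probe set lay between 0.917 and 1.21 on the 20 arrays. The changes of the 2 member probe sets are thus measurements of those features, and these data do not show that Actb RNA as a whole followed them. By annotation and name, _f_at and the control probe sets go back to the same Actb sequence record, and _s_at to another. Which transcripts each feature matches was not tested.

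Several of the Actb calls also rest on single arrays. If control replicate 1 at 0 h was left out, the changes at 4 h were -1.61 (_s_at, adjusted p = 0.0942) and -1.59 (_f_at, 0.139), those at 12 h -1.38 (0.0825) and -1.15 (0.163), and the TSA difference of _f_at at 0 h -0.91 (0.159). Without control replicate 2 at 4 h the changes at 4 h were -1.75 (0.0682) and -1.58 (0.0882). Without control replicate 2 at 12 h those at 12 h were -1.77 (0.0564) and -1.73 (0.0695), and without control replicate 1 at 12 h that of _f_at was -1.33 (0.0922). The TSA difference of _f_at at 0 h was also lost without either TSA array (0.0502 and 0.0991) and in a fit of only the 4 arrays compared (0.0602). That of _s_at at 12 h was lost without control replicate 1 (0.0765) or 2 (0.0972), with TSA replicate 1 left out (0.171), or in a fit of only the 4 arrays compared (0.118). In TSA-treated cells _s_at rose against 0 h by 1.35 ± 0.31 at 12 h (0.00884), 1.21 ± 0.31 at 24 h (0.0175) and 1.78 ± 0.31 at 48 h (8.2e-04), and _f_at by 1.53 ± 0.33 at 48 h (0.00400), against 0.34, 0.25 and 0.42 for the control probe set, which did not pass. The first was lost without TSA replicate 2 at 0 h (1.13, 0.0847) or TSA replicate 1 at 12 h (1.09, 0.0945), and the second without TSA replicate 2 at 0 h (0.99, 0.131) or TSA replicate 3 at 24 h (1.09, 0.107), or in a fit of only those 4 arrays (0.0658).

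**Figure D4:**
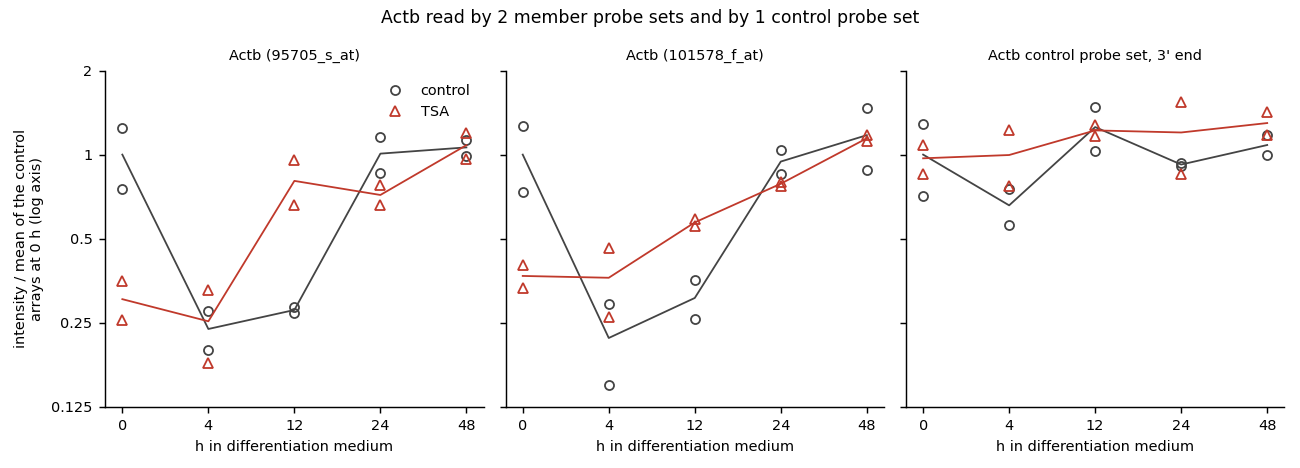
Actb on the 20 TSA arrays as read by the 2 member probe sets and by the control probe set of the 3′ end, with each intensity divided by the mean of that probe set's 2 control arrays at 0 h (log axis) against time (h, evenly spaced), 1 point per array and lines through group means. The member probe sets dip at 4 and 12 h in control cells and start low with TSA, while the control probe set differed by 0.0084 (log2) between TSA and control at 0 h.

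The probe sets nearest to each member in the course over the 10 TSA-arm groups were found by the root mean square (RMS) difference of centred log2 group means, with members left out. For Acta1 they were Tnnc1 (0.47), Mybph (myosin binding protein H, 0.49) and Myh3 (0.55), and for Actc1 (_i_at) Tnnc1 (0.39), the light chain Myl1 (0.50) and the slow troponin I gene Tnni1 (0.67). The median difference to all probe sets so compared, which were tested, had 1 gene symbol and were no members, was 2.68 and 2.91. For the family probe set _f_at of Actc1 they were Sntb1 (0.33), Tnni2 (0.34) and Herpud1 (0.38), with a median of 1.26. For Tagln they were Has2 (hyaluronan synthase, 0.41), Slc20a1 (0.41) and Fkbp5 (0.43), with a median of 1.14 to all, and no smooth muscle gene was among the 3. The nearest to Actg1 were Dnajb13 (0.10), Zfp771 (0.10) and S100a6 (0.12), with a median of 0.38. The group means of Actg1 spanned only 0.89 log2 units, against 7.37 for Acta1, so its small differences are no closer match. Those of the Actb probe sets were Ubn1 and Tcf25 (0.33 each) with Spg20 (0.41) for _f_at, and Tcf25 (0.45), Ubn1 (0.47) and Akap8l (0.51) for _s_at. Their medians were 0.83 and 0.94.

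In the Sir2 arrays the sarcomeric actins were lower in pHanSir2 cells, most at 12 h. Acta1 read 1600, 1642 and 1486 in pHan and 473.3, 521.3 and 504.2 in pHanSir2 cells at 12 h, and 6374, 6925 and 7011 against 5226, 4705 and 5547 at 36 h. The groups did not overlap at either time. The difference was -1.64 ± 0.10 at 12 h (adjusted p = 4.3e-06, 3.15-fold) and -0.39 ± 0.10 at 36 h (0.0332, 1.31-fold). The difference between the 2 effects, 1.25 ± 0.15, passed (adjusted p = 0.00254). The call at 36 h did not hold with median centring (-0.35, adjusted p = 0.110) or quantile normalization (-0.27, 0.0936), without a filter (0.0709), in a fit of only the 2 groups (0.0892), or without pHan replicate 1 (0.0523), 2 (0.0947) or 3 (0.109) or pHanSir2 replicate 1 (0.0795) or 2 (0.110) at 36 h.

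The Actc1 probe set _f_at read 1911, 1805 and 2055 in pHan and 903.8, 820.3 and 854.8 in pHanSir2 cells at 12 h, and 5369, 5247 and 5137 against 3806, 3881 and 3870 at 36 h. It was 2.24-fold lower at 12 h, -1.15 ± 0.09 (adjusted p = 2.5e-05), and 1.36-fold lower at 36 h, -0.45 ± 0.09 (0.0115), the latter not with quantile normalization (-0.31, 0.0717). The effects differed by 0.71 ± 0.13 (adjusted p = 0.0256), a call lost without a filter (0.0655) and in 10 of the 12 fits that left out 1 array each (adjusted p 0.0349 to 0.0701). The other probe set, _i_at, read 1044, 1207 and 1262 in pHan and 260.0, 227.3 and 305.0 in pHanSir2 cells at 12 h, and 4060, 3812 and 4109 against 2773, 2916 and 3259 at 36 h. At 12 h it was 4.43-fold lower, -2.12 ± 0.13 (adjusted p = 4.3e-06), and at 36 h the difference of -0.42 ± 0.13 did not pass (0.0608). Its effects differed by 1.69 ± 0.18 (adjusted p = 0.00130). All pHanSir2 arrays of both probe sets lay below the pHan arrays of their time. Myog was lower in pHanSir2 cells at 12 h (-0.88 ± 0.20, adjusted p = 0.0260), and 10 of 13 tested skeletal muscle genes were lower and 0 higher at 12 h. At 36 h 5 were lower and 2 higher, one of them Myf5 (0.90 ± 0.17). Over all tested probe sets 5.55% were called at 12 h and 9.26% at 36 h.

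Tagln differed only at the later time. It read 93.7, 80.3 and 73.3 in pHan and 75.8, 107.3 and 93.2 in pHanSir2 cells at 12 h, which overlap, and 76.2, 65.9 and 74.0 against 24.1, 34.0 and 31.0 at 36 h, which do not. The difference at 36 h was -1.08 ± 0.15 (adjusted p = 7.7e-04, 2.42-fold lower), that at 12 h 0.14 ± 0.15 (0.701), and the effects differed by -1.22 ± 0.21 (0.0169). Tagln was dim in these arrays, between the 36.1 and 42.3 percentile of the array in pHanSir2 cells at 36 h. Other smooth muscle genes at 36 h were 3 higher and 0 lower of 9 tested (median 0.19, against -0.02 over all), with Csrp1 at 0.55 ± 0.13, Tagln2 at 0.46 ± 0.12 and Csrp2 at 0.62 ± 0.17, and 0 of 9 were called at 12 h. Over all tested probe sets 9.26% were called at 36 h (450 higher and 240 lower) and 5.55% at 12 h.

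Acta2 was lower in pHanSir2 cells at both times. It read 2052, 2040 and 1643 in pHan and 1135, 1090 and 1593 in pHanSir2 cells at 12 h, and 2656, 2455 and 2670 against 1577, 1657 and 1742 at 36 h, with no overlap at either time. The differences were -0.60 ± 0.15 (adjusted p = 0.0369) and -0.64 ± 0.15 (0.0186), and their difference, -0.04 ± 0.21, did not pass (0.949). The call at 12 h was lost in 8 of the 12 fits that left out 1 array each (adjusted p 0.00712 to 0.135) and with median centring (0.0505), no filter (0.0858), the title suffix as a covariate (0.105) or a fit of only the 2 groups (0.136). That at 36 h was lost without pHan replicate 1 (0.0591) or 3 (0.0625) or pHanSir2 replicate 1 (0.0660) or 2 (0.0509) at 36 h. Actg2 read 375.9, 338.8 and 367.8 in pHan and 221.7, 264.0 and 246.7 in pHanSir2 cells at 36 h, -0.55 ± 0.13 (adjusted p = 0.0215), and 0.27 ± 0.13 at 12 h (0.303). The call at 36 h was lost without pHan replicate 1 (0.0730) or 3 (0.0688) or pHanSir2 replicate 1 (0.0856) or 3 (0.0545) at 36 h. The difference of its 2 effects, -0.82 ± 0.19 (adjusted p = 0.0479), was lost in 11 of the 12 fits that left out 1 array (0.0336 to 0.117) and with median centring (0.0912), the smaller pseudocount (0.0514) or no filter (0.109).

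No difference of the cytoplasmic actins between pHan and pHanSir2 cells was called. Actg1 read 4949, 4472 and 4341 against 5094, 5297 and 4536 at 12 h and 3953, 3605 and 4010 against 3783, 4009 and 3979 at 36 h, differences of 0.12 ± 0.10 (adjusted p = 0.634) and 0.03 ± 0.10 (0.916). The Actb differences lay between -0.30 and 0.09, and 0 of the 4 passed (adjusted p 0.257 to 0.830). Cnn1 read between 1.98 and 19.0 on the 12 arrays and was not tested.

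Of the 9 members tested, 4 were called for pHanSir2 against pHan at 12 h (5.55% of all tested) and 5 at 36 h (9.26%), all of them lower. The 2 effects differed for 5 (1.76% of all). From 12 to 36 h 5 members changed in pHan cells (32.1% of all) and 6 in pHanSir2 cells (28.5%). Acta1 rose by 2.10 ± 0.10 in pHan and 3.34 ± 0.10 in pHanSir2 cells, and Actc1 by 1.45 ± 0.09 and 2.15 ± 0.09 (_f_at) or 1.77 ± 0.13 and 3.46 ± 0.13 (_i_at). Tagln fell in pHanSir2 cells, -1.39 ± 0.15 (adjusted p = 2.0e-05), and its change in pHan cells, -0.17 ± 0.15, did not pass (0.408). Actg2 also fell in pHanSir2 cells, -0.69 ± 0.13 (0.00185). The other 3 calls, of Actg1, Acta2 and Actb, were each lost in some fits. Actg1 changed by -0.34 ± 0.10 in pHanSir2 cells (0.0282), a call lost with median centring (0.0890), no filter (0.0599) or a fit of only the 2 groups (0.0706) and in 5 of 12 fits without 1 array (0.0231 to 0.0957). Acta2 changed by 0.44 ± 0.15 in pHan cells (0.0377), lost with median centring (0.0802) and quantile normalization (0.0561), without a filter (0.0723), with the title suffix as a covariate (0.0537) and in 6 of 12 such fits (0.0121 to 0.129). The Actb probe set _s_at changed by 0.54 ± 0.15 in pHan cells (0.0171), lost in 2 of 12 such fits (0.0118 to 0.0717), while the Actb control probe set of the 3′ end changed by -0.09 ± 0.12 (0.595).

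**Figure D5:**
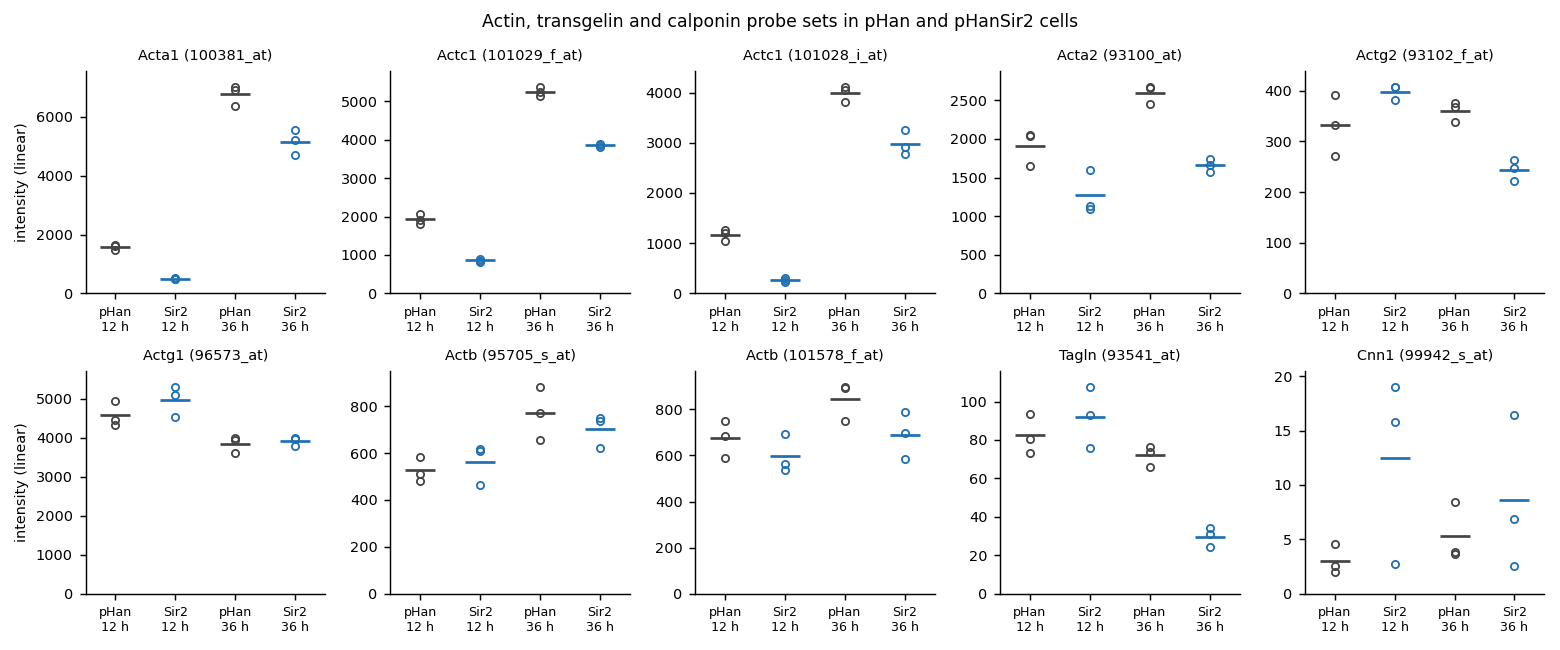
Intensity (linear scale, y axis from 0) of the 10 probe sets in pHan (grey) and pHanSir2 (blue, labelled Sir2) cells at 12 and 36 h, with 1 point per array and bars for the means of 3 arrays. The pHanSir2 arrays of Acta1 lie at 473.3 to 521.3 at 12 h, below the pHan arrays at 1486 to 1642, and those of Tagln separate at 36 h.

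The actin-associated genes at 36 h went partly the other way from the sarcomeric actins in pHanSir2 cells. Of 24 genes of actin binding and turnover 5 were higher and 0 lower (median 0.17), among them Gsn (0.82 ± 0.10) and Capg (1.19 ± 0.14). Of 12 crosslinkers and tropomyosins 4 were higher and 2 lower (median 0.30). The lower ones were the muscle genes Actn3 (-1.07 ± 0.13) and Tpm2 (-0.46 ± 0.11), and the higher ones included Tpm1 (0.55 ± 0.10) and Tpm4 (0.46 ± 0.10). At 12 h 2 of 24 were higher and 0 lower, and 1 of 12 higher and 2 lower. Of 10 genes of the SRF axis 1 was higher at each time, Egr1 at 12 h (0.78 ± 0.17) and Fhl1 at 36 h (0.47 ± 0.11), and 0 were lower. Over all tested probe sets 5.55% were called at 12 h (207 higher and 207 lower) and 9.26% at 36 h (450 higher and 240 lower). The shares of 1 of 10 at both times and of 2 of 24 at 12 h were near these, and calls at 36 h were more often higher on the whole array. Of the markers of other cell types, the adipocyte gene Lpl was called at 36 h (0.97 ± 0.18, adjusted p = 0.00436), where the summed level of the 5 adipocyte genes was 313.0 to 423.1 in pHanSir2 and 277.5 to 293.6 in pHan cells, and its part in the other results was not tested. In pHan cells alone, from 12 to 36 h, 13 of the 24 turnover genes were lower and 0 higher. Of the 12 crosslinkers and tropomyosins 7 were lower and 3 higher there (32.1% of all tested were called). Of the genes named from these 2 lists, Gsn (-1.09), Capg (-1.35), Tpm1 (-1.51) and Tpm4 (-0.70) fell, and Actn3 (1.06) and Tpm2 (0.92) rose.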

How the data were processed

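The deposited table held 1 linear intensity per probe set and array. The authors' values of the Sir2 arrays were MAS5 signal intensities (version not stated), per the submitters' processing notes. The tool behind the TSA arrays' values was not given in the sources used here, where 21.0% to 24.2% of values on an array were at or below 0. Array number limits the precision. Arrays were grouped by their labels, and the 2 sets were not compared in level. The members and gene lists were chosen with earlier results of these data known.

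Of 12488 probe sets, 66 controls were left out and 10833 of the rest had 1 gene symbol. Values below 0 were set to 0 and a pseudocount was added, the 40th percentile in the TSA arrays and the 20th in the Sir2 arrays, the former being negative at the 20th. A probe set was tested if its mean reached the 40th percentile of all means (144.9 and 31.1). The model for each set, made with limma 3.58.1 (R 4.3.3), had 1 mean per group, with 10 and 8 residual degrees of freedom, and the fit was tested on simulated data. Adjusted p-values are from this model, except where an alternative fit is named beside them. All member probe sets are named, the brightest of a gene first, with Sirt1 and Myog as checks, the 3 nearest genes of members that changed over control cells, and up to 4 genes per list and comparison by adjusted p, with a few more chosen after their values were seen. Promoters came from RefSeq. Figures used matplotlib 3.10.9.

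Alternatives were quantile normalization, median centring, a smaller and a larger pseudocount, no filter and one at the 60th percentile, trended robust variances, the replicate number as a block, the title suffix as a covariate, only the groups compared, and leaving out each array. The Actb control probe set was added after seeing the data.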

Additional observations from a re-analysis of the deposited data

Results flagged for a closer look

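Effects that differed between times, by the test of that difference itself, were found for 10 member probe sets and comparisons. The TSA effect differed between the 5 times for Acta1 (adjusted p = 0.0125), the Actc1 probe sets _i_at (7.4e-04) and _f_at (4.2e-04) and the Actb probe sets _f_at (0.0275) and _s_at (0.00293). For Acta1 it ran from 0.62 at 0 h to -1.12 at 24 h and 0.66 at 48 h, and for Actc1 (_i_at) from 0.05 to -2.16 and 0.98. The value of 0.05 is a difference between levels at or near the floor. For Actb (_s_at) it ran from -1.64 at 0 h to 1.46 at 12 h, and the control probe set of the 3′ end of Actb did not show it (adjusted p = 0.804). The result for Actb by _f_at was lost without a filter (0.0590) and in 6 of the 20 fits that left out 1 array (adjusted p 0.0174 to 0.0948).

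The Sir2 effect differed between 12 and 36 h for Acta1 (adjusted p = 0.00254), Actc1 by _i_at (0.00130) and by _f_at (0.0256), Actg2 (0.0479) and Tagln (0.0169). The effect was smaller at 36 h for Acta1 and Actc1. For Actg2 and Tagln it was -0.55 and -1.08 at 36 h, and at 12 h it had not passed (0.27 and 0.14).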

How the results depend on the processing

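In the TSA arrays 46 member calls were made and in the Sir2 arrays 25. Quantile normalization and median centring kept all 46 in the former, and 22 and 20 of the 25 in the latter. Fitting only the groups compared, with 2 arrays per group, left 2 in place of 11 calls for TSA at single times and 8 in place of 15 for control cells against 0 h. In fits that left out 1 array, 31 of the 46 and 16 of the 25 calls held every time. The count for control cells against 0 h ranged from 9 (without control replicate 1 at 0 h) to 16, that for Sir2 at single times from 5 (without pHan replicate 1 or 3 or pHanSir2 replicate 1 at 36 h) to 10 around the main 9, and that for the Sir2 effect differing between times from 3 to 5. Without a filter the last count was 3, and with the replicate block it was also 3. The replicate numbers did not pair the arrays (correlations of same-numbered deviations -0.100 to 0.228 and -0.314 to 0.116), and the block kept 44 of 46 and 20 of 25 calls. The 7 calls it did not keep were Actb by _s_at in TSA-treated cells at 24 h (adjusted p = 0.0520) and by _f_at for the TSA effect between times (0.0549), Acta2 for Sir2 at 12 h (0.0670) and from 12 to 36 h in pHan cells (0.0573), Acta1 for Sir2 at 36 h (0.0622), and the Sir2 effect between times of Actc1 by _f_at (0.0537) and Actg2 (0.0830). With 2 or 3 arrays per group the cause of lost calls was not tested.

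For 6 Actb calls the estimate from the 3′ control probe set had the other sign but did not differ from 0. For TSA it was 0.0084 ± 0.34 at 0 h, against calls of both member probe sets, and -0.018 ± 0.34 at 12 h. It was 0.37 ± 0.34 in control cells at 12 h, again against both, and -0.091 ± 0.12 in pHan cells from 12 to 36 h. None of these passed in the limma fit, where the smallest adjusted p among them was 0.595, so no opposite change was measured.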
